A study of Saccharomyces cerevisiae with 24 samples.

Results

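Untreated budding yeast carrying an inducible degron for DCP2 (dcp2-ideg T0) was compared with untreated yeast carrying an inducible degron for LSM1 (lsm1-ideg T0), across all features of a poly(A) RNA count table. The 8 libraries, 4 per strain, were taken from the 24 of the series by their titles, and 11776 of the 12289 features had enough reads to be tested. All cultures grew in the rich medium YPD and received neither auxin (indole-3-acetic acid, IAA) nor beta-oestradiol before T0. The 4 untreated wt T0 libraries, labelled WT, are given beside both strains, and libraries taken 60 min after 100 µM IAA and 1 µM beta-oestradiol (T60) serve as further libraries of the same strains. The wt libraries carry the letters BY in their library names. Beyond that the labels gave no parent strain, and no promoter, tag or clone, and they did not say that replicates were separate cultures. The p-values rest on the spread within groups, estimated over all 24 libraries fitted together, T60 libraries included. Part of that spread may therefore be technical alone.

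Decapping removes the 5′ cap of an mRNA and opens it to the 5′-3′ exonuclease Xrn1. Dcp2 is the catalytic subunit of the decapping enzyme, and the cytoplasmic ring Lsm1-7, which holds Lsm1, binds the 3′ ends of deadenylated mRNAs with Pat1 and promotes decapping. An auxin degron joins a tag to a protein so that added auxin, through an introduced F-box protein, sends the tagged protein to the proteasome. Before auxin both strains should still hold the tagged protein, though its level was not analysed here, and the comparison asks how far the 2 starting points differed.

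In all, 27 of 11776 features (0.229%) were called at an adjusted p under 0.05 by edgeR's quasi-likelihood test with Benjamini-Hochberg adjustment over all features. Of these, 19 were higher (0.161%) and 8 lower (0.0679%) in dcp2-ideg T0 than in lsm1-ideg T0. Among the protein-coding genes 12 of 5746 (0.209%) were called, 7 higher (0.122%) and 5 lower (0.0870%). The 27 features lay on 23 distinct stretches of the genome, because the ribosomal DNA (rDNA) spacers are listed under several names. They clustered by place: 10 features were rDNA on chromosome XII, all higher, 2 were the LSM1 gene and its antisense transcript, both higher, and 6 lay within 10 kb of a chromosome end, all lower. The remaining 9 features, 7 higher and 2 lower, were scattered. All 27 had groups that did not overlap in CPM (counts per 1000000 reads of the TMM-scaled library), which held for 456 of all 11776 features (3.87%). The median log2 difference over all features was 0.018. Against wt T0 the same test called 97 features (0.824%) in dcp2-ideg T0 and 41 (0.348%) in lsm1-ideg T0, 2 comparisons that share the wt libraries.

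**Figure D1:**
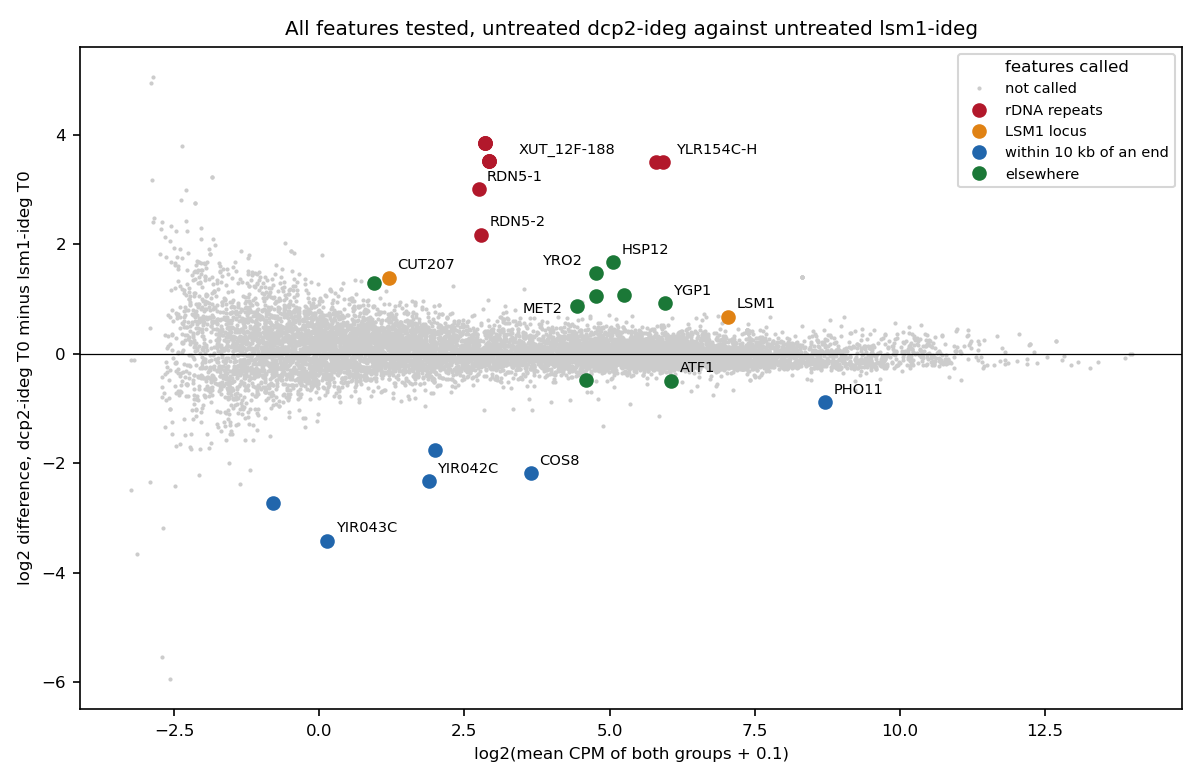
The log2 difference of dcp2-ideg T0 minus lsm1-ideg T0 for each of the 11776 features (y axis) is plotted against log2 of the mean CPM of both groups plus 0.1 (x axis), with the 27 called features coloured by place. Of the called features, those of the rDNA lie highest and those near chromosome ends lowest, while most features sit close to 0.

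The 8 libraries held 47.4 to 60.4 M counts (M, 1000000). The library dcp2-ideg T0 replicate 4 stood apart: ribosomal protein genes took 24.7% of its counts and 15.3% to 16.3% in the other 7 libraries. Its counts differed from those of its 3 group mates by a chi-square of 479 to 579 per degree of freedom, against 17.5 to 46.7 for the other 9 pairs of replicates within both groups. Without it 27 features were again called, 21 of them among the 27 above, and the calls on YRO2, PHO11, ATG39, ATF1, YDL241W and XUT_9F-220 were lost. A fit of the 8 libraries alone called 15 features, all among the 27, and the same fit without dcp2-ideg replicate 4 called 42, with 23 of the 27. The fit of the 8 kept the rDNA features, LSM1, COS8, HSP12, YGP1 and MET2 and lost the other 12. Leaving out each of the 8 libraries in turn kept the call on 11 of the 23 stretches, and no direction turned.

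Marker genes were read as a check of the strains. The a-cell genes MFA1, MFA2, STE2, STE6 and BAR1 had counts from 5305 upward in all 12 T0 libraries, and AGA2 had 1746 to 3428. The alpha-factor genes MF(ALPHA)1 and MF(ALPHA)2 had 0 to 21 counts. Of the other alpha-cell genes checked, STE3 had 100 to 242 counts and SAG1 had 574 to 1988. MET17 had 0 counts in all 12 and LEU2 had 0 to 8. URA3 had 30.2, 29.0, 31.4 and 12.4 CPM in dcp2-ideg T0, 34.1, 34.8, 42.8 and 33.6 CPM in lsm1-ideg T0, and 0.24 to 0.59 CPM in wt T0. The log2 difference of URA3 between both degron strains was -0.50 ± 0.22 (SE) with an adjusted p of 0.75 by edgeR.

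LSM1 itself had the smallest standard error of the called features. The gene lies on the minus strand of chromosome X, at 186854 to 187813. It had 164, 158, 159 and 169.8 CPM in dcp2-ideg T0, against 101, 103, 103 and 99.0 CPM in lsm1-ideg T0. The wt T0 libraries had 147 to 162 CPM, so that the lsm1-ideg libraries lay below every other T0 library. LSM1 averaged 163 ± 5.60 CPM in dcp2-ideg T0 and 102 ± 2.03 CPM in lsm1-ideg T0 (SD, n = 4 each), a log2 difference of 0.68 ± 0.080 (SE, adjusted p = 1.1e-05, edgeR). Against wt T0 the log2 difference was 0.082 in dcp2-ideg (adjusted p = 0.67, edgeR) and -0.60 in lsm1-ideg (adjusted p = 0.00011, edgeR). The counts over the LSM1 feature were thus lower in the strain whose LSM1 gene carries the degron, before any addition. Where the tag was inserted is not given, and whether it changed the counted stretch was not tested.

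On the other strand of LSM1 lies CUT207, a cryptic unstable transcript (chromosome X, 186890 to 187209, plus strand), of a class normally degraded soon after transcription. It had 2.41, 3.92, 3.22 and 3.20 CPM in dcp2-ideg T0, 1.14, 1.02, 1.41 and 1.30 CPM in lsm1-ideg T0 and 1.85 to 3.42 CPM in wt T0. The difference of 1.39 ± 0.26 (log2, SE) was called by edgeR (adjusted p = 0.011). That call was lost without dcp2-ideg replicate 2 or without lsm1-ideg replicate 1, 2 or 4 (adjusted p = 0.050 to 0.069). CUT_GIM_0998, which overlaps CUT207, had a log2 difference of 1.81 ± 0.40 and missed the threshold by edgeR (adjusted p = 0.053), while DESeq2, limma voom and the fit with a replicate block called it. Per base, CUT207 had 5.88% of the CPM of LSM1 in dcp2-ideg T0, 3.59% in lsm1-ideg T0 and 5.35% in wt T0. The libraries mark the strand, but the strand setting of the counting was not given in the sources used here, so the part of sense reads in these counts was not tested.

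The neighbours of LSM1 did not pass the test. GCD14, for a subunit of a tRNA methyltransferase, had a log2 difference of -0.13 ± 0.11 (adjusted p = 0.79, edgeR) and MTC1 one of -0.27 ± 0.12 (adjusted p = 0.74, edgeR). DCP2 lies on the minus strand of chromosome XIV, at 402541 to 405613. It had 145, 123, 146 and 83.3 CPM in dcp2-ideg T0, 149, 141, 141 and 149 CPM in lsm1-ideg T0 and 133 to 160.2 CPM in wt T0. The groups overlapped, and the difference of -0.22 ± 0.14 (log2, SE) was not called (adjusted p = 0.78, edgeR). Without dcp2-ideg replicate 4, the lowest library, it was -0.07. Its neighbours NCS2 and MLS1 had log2 differences of 0.004 and -0.68 and were not called (adjusted p = 0.99 and 0.75, edgeR).

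Of the 8 Lsm genes listed, LSM1 alone was called (1 of 8), and the median log2 difference of the list was 0.20, against 0.018 over all features and -0.06 for the list without dcp2-ideg replicate 4. LSM2 to LSM8, the other subunits of the cytoplasmic ring and of its nuclear counterpart with Lsm8, lay between 0.02 (LSM4) and 0.35 (LSM5). Of 17 decapping and 5′-3′ decay genes, again only LSM1 was called, and the list's median was -0.08. DCP1, the activator subunit that binds Dcp2, had a log2 difference of 0.09 ± 0.15, PAT1, which joins the Lsm1-7 ring, one of -0.15 ± 0.18, and XRN1 one of -0.16 ± 0.19. None of the 30 deadenylation and exosome genes or the 5 nonsense-mediated decay genes was called by edgeR, DESeq2 or limma voom, and 1 and 0 of them had an unadjusted p under 0.05 by edgeR.

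**Figure D2:**
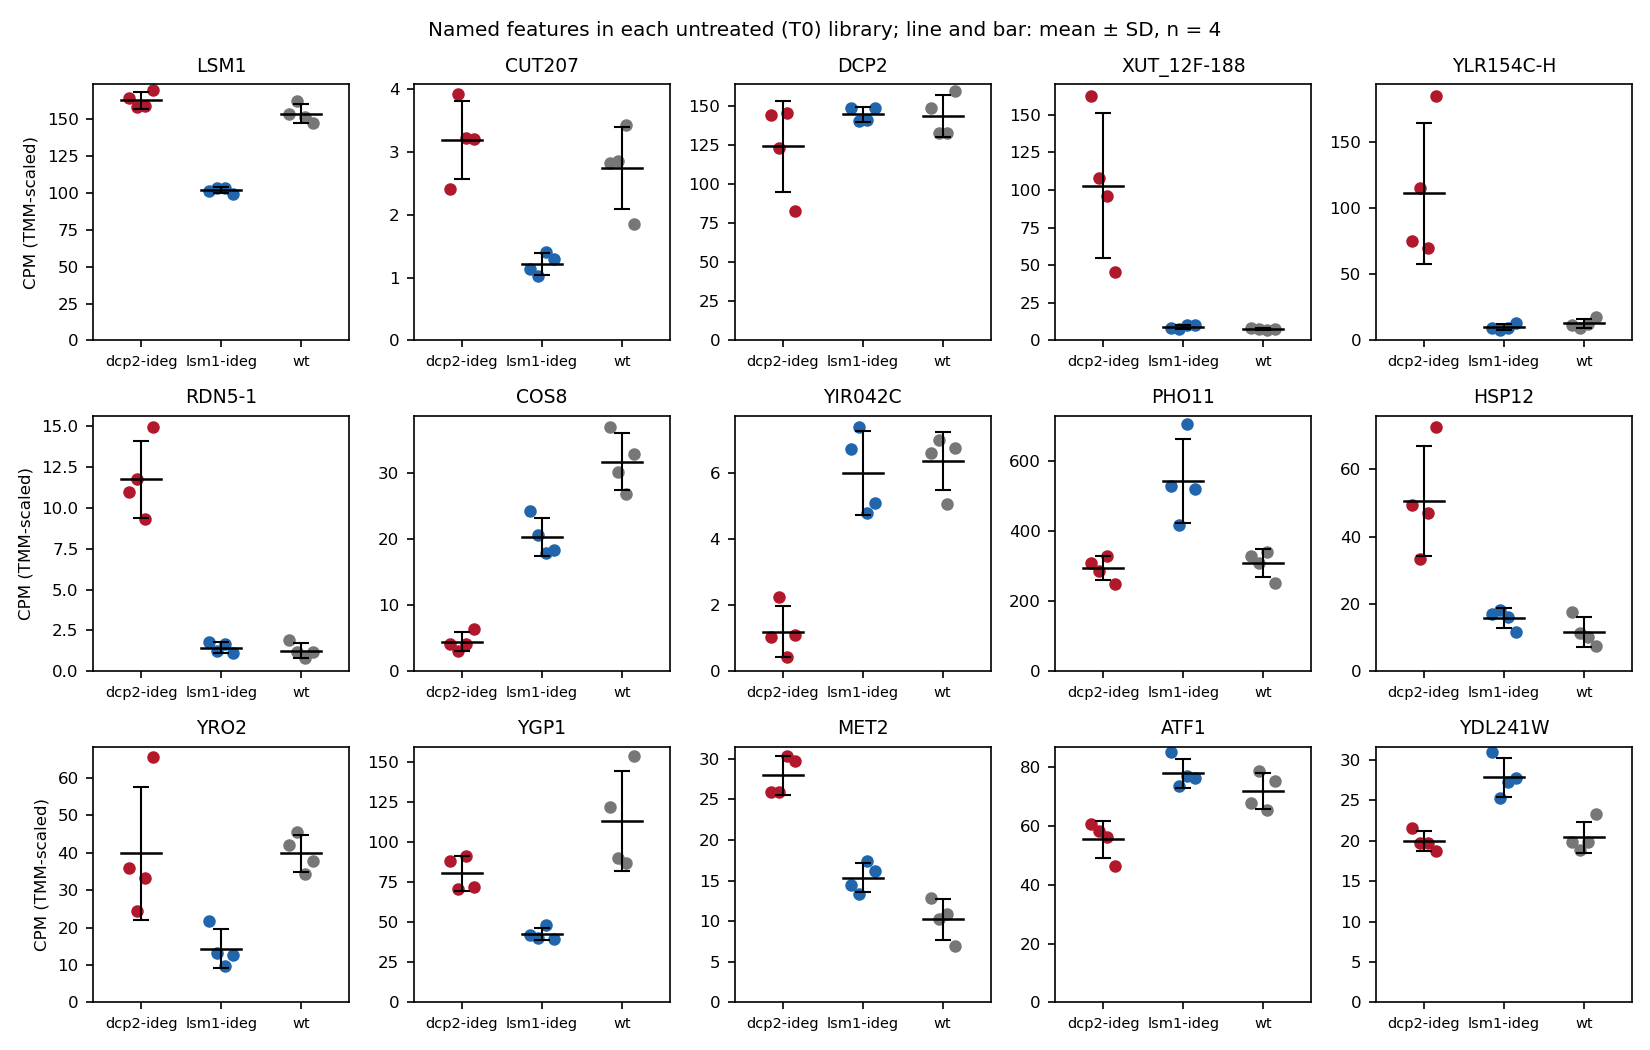
CPM (y axis, from 0) of 15 named features in each untreated library of dcp2-ideg, lsm1-ideg and wt (x axis), with the mean and SD of the 4 libraries as a line and bar. LSM1 and CUT207 are lowest in lsm1-ideg, the rDNA features are high in dcp2-ideg, and wt lies beside lsm1-ideg for some genes and beside dcp2-ideg for others.

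The called features with the largest differences were in the rDNA. Yeast rDNA is a tandem array on chromosome XII in which the 35S precursor (18S, 5.8S and 25S rRNA with transcribed spacers) is made by RNA polymerase I from one strand, and 5S rRNA by RNA polymerase III from the other. Nontranscribed spacers lie between them and hold silenced RNA polymerase II promoters. The genome build represents the array by 2 copies of the 35S unit, and reads of any repeat were counted at those copies. Mature rRNA mostly lacks a poly(A) tail, so these counts are of the part that was retained by poly(A) selection.

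XUT_12F-188, an Xrn1-sensitive unstable transcript in the spacer between RDN5-1 and the 3′ end of the second 35S unit (chromosome XII, 460075 to 460602, plus strand), overlaps no other feature. It had 162, 108, 95.8 and 45.2 CPM in dcp2-ideg T0, against 8.18, 7.56, 10.5 and 10.1 CPM in lsm1-ideg T0 and 6.74 to 8.39 CPM in wt T0. The lowest dcp2-ideg library, replicate 4, was still far above every lsm1-ideg and wt library. Its mean was 11.3-fold higher in dcp2-ideg, a log2 difference of 3.50 ± 0.28 (SE, adjusted p = 5.3e-08, edgeR). The difference between dcp2-ideg and wt was 3.76 ± 0.29 (adjusted p = 3.7e-09, edgeR), and that between lsm1-ideg and wt 0.26 ± 0.27 (adjusted p = 0.96, edgeR). The first 150 of its 528 bases are shown because this feature had the smallest adjusted p of the comparison (R64 reference genome, chrXII:460075-460224, plus strand, no capitals).
XUT_12F-188: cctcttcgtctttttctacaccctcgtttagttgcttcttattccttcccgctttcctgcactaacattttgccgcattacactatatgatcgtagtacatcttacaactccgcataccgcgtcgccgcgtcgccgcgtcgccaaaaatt

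The feature starts 278 bases after the end of RDN5-1 and ends 109 bases before ETS2-2, the 3′ external transcribed spacer of the second 35S unit. ETS2-1 and ETS2-2 are identical over 211 bases and lie on the minus strand. ETS2-1 (chromosome XII, 451575 to 451785) had 23.98, 9.43, 11.3 and 8.30 CPM in dcp2-ideg T0, 0.70, 0.92, 0.49 and 1.59 CPM in lsm1-ideg T0 and 1.12 to 3.27 CPM in wt T0. Again no dcp2-ideg library overlapped the other groups, and the log2 difference from lsm1-ideg was 3.84 ± 0.41 (adjusted p = 2.5e-06, edgeR). ETS2-2 (chromosome XII, 460712 to 460922) gave 3.53 ± 0.42 (adjusted p = 1.1e-05, edgeR). Reads that lie wholly within these bases cannot be told apart between the copies, and both copies stand for 1 measurement. Their shared sequence, the end of the 35S precursor that is removed during rRNA processing, is printed once (R64, chrXII:451575-451785, minus strand, no capitals).
ETS2-1: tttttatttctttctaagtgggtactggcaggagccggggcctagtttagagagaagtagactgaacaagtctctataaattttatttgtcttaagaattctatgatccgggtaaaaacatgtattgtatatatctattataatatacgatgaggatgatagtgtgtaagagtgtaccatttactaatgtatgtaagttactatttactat

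The 5S genes are annotated in 6 copies. RDN5-1 (chromosome XII, 459676 to 459796, plus strand) had 10.9, 11.8, 9.31 and 14.9 CPM in dcp2-ideg T0, against 1.80, 1.26, 1.65 and 1.12 CPM in lsm1-ideg T0 and 0.79 to 1.94 CPM in wt T0. It was 8.06-fold higher in dcp2-ideg, with a log2 difference of 3.01 ± 0.48 (adjusted p = 0.0013, edgeR). RDN5-2 (chromosome XII, 468813 to 468931, plus strand) averaged 11.1 ± 1.98 CPM in dcp2-ideg T0 and 2.46 ± 0.469 CPM in lsm1-ideg T0 (SD, n = 4 each), a log2 difference of 2.18 ± 0.27 (adjusted p = 2.1e-05, edgeR). RDN5-3 to RDN5-6, which lie among the asparaginase genes beyond the 35S units, had log2 differences of 0.88 to 1.10 and were not called by edgeR (adjusted p = 0.098 to 0.31), although all 4 had groups that did not overlap. DESeq2, limma voom and the fit with a replicate block called RDN5-3 and RDN5-5. Reads that lie wholly within sequence shared by copies cannot be told apart. RDN5-1 and RDN5-6, of the same sequence, averaged 11.7 and 1.97 CPM in dcp2-ideg T0. RDN5-3 and RDN5-5 had the same value as each other in every T0 library. How reads were assigned to copies was not tested, so these values establish no difference between copies. The copies are nearly identical, and the 2 called ones are printed to show how little separates them (R64, chrXII:459676-459796 and chrXII:468813-468931, plus strand). Counted from 1 at the 5′ end of RDN5-1, RDN5-2 to RDN5-5 carry the substitution A118G, marked by a capital, and are 119 rather than 121 bases long.
RDN5-1: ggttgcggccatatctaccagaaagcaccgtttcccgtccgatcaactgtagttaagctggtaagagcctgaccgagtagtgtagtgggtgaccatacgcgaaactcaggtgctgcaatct
RDN5-2: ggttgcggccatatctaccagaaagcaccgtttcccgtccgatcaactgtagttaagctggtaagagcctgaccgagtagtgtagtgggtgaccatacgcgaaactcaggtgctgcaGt

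The opposite strand of RDN5-2 was higher as well. YLR154C-H, a short open reading frame annotated there (chromosome XII, 468727 to 469008, minus strand), had 75.2, 115, 69.6 and 185 CPM in dcp2-ideg T0, against 9.38, 7.97, 9.17 and 13.02 CPM in lsm1-ideg T0 and 9.36 to 17.9 CPM in wt T0. The log2 difference was 3.49 ± 0.43 (adjusted p = 2.1e-05, edgeR), and no dcp2-ideg library came near the other groups. Per base, YLR154C-H had 422% of the CPM of RDN5-2 in dcp2-ideg T0, 169% in lsm1-ideg T0 and 221% in wt T0. Its near-copies opposite RDN5-3, RDN5-4 and RDN5-5 (YLR156C-A, YLR157C-C and YLR159C-A) were under 1.4 CPM in every T0 library of both strains, with log2 differences of 1.87 to 1.98 that were not called (adjusted p = 0.66 to 0.77, edgeR).

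The body of the 35S unit differed much less. RDN18, RDN25, RDN58 and both internal transcribed spacers had log2 differences of 0.09 to 0.43 with overlapping groups, and none was called. The 5′ external transcribed spacer ETS1, which is cleaved off early, had 306, 317, 359 and 869 CPM in dcp2-ideg T0, against 115, 141, 278 and 169.7 CPM in lsm1-ideg T0 and 115 to 280.4 CPM in wt T0. The groups of dcp2-ideg and lsm1-ideg did not overlap, but the difference of 1.40 ± 0.34 missed the threshold (adjusted p = 0.10, edgeR). The 4 asparaginase genes ASP3-1 to ASP3-4, which sit between RDN5-2 and RDN5-6, all had a log2 difference of -0.15 and were not called.

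**Figure D3:**
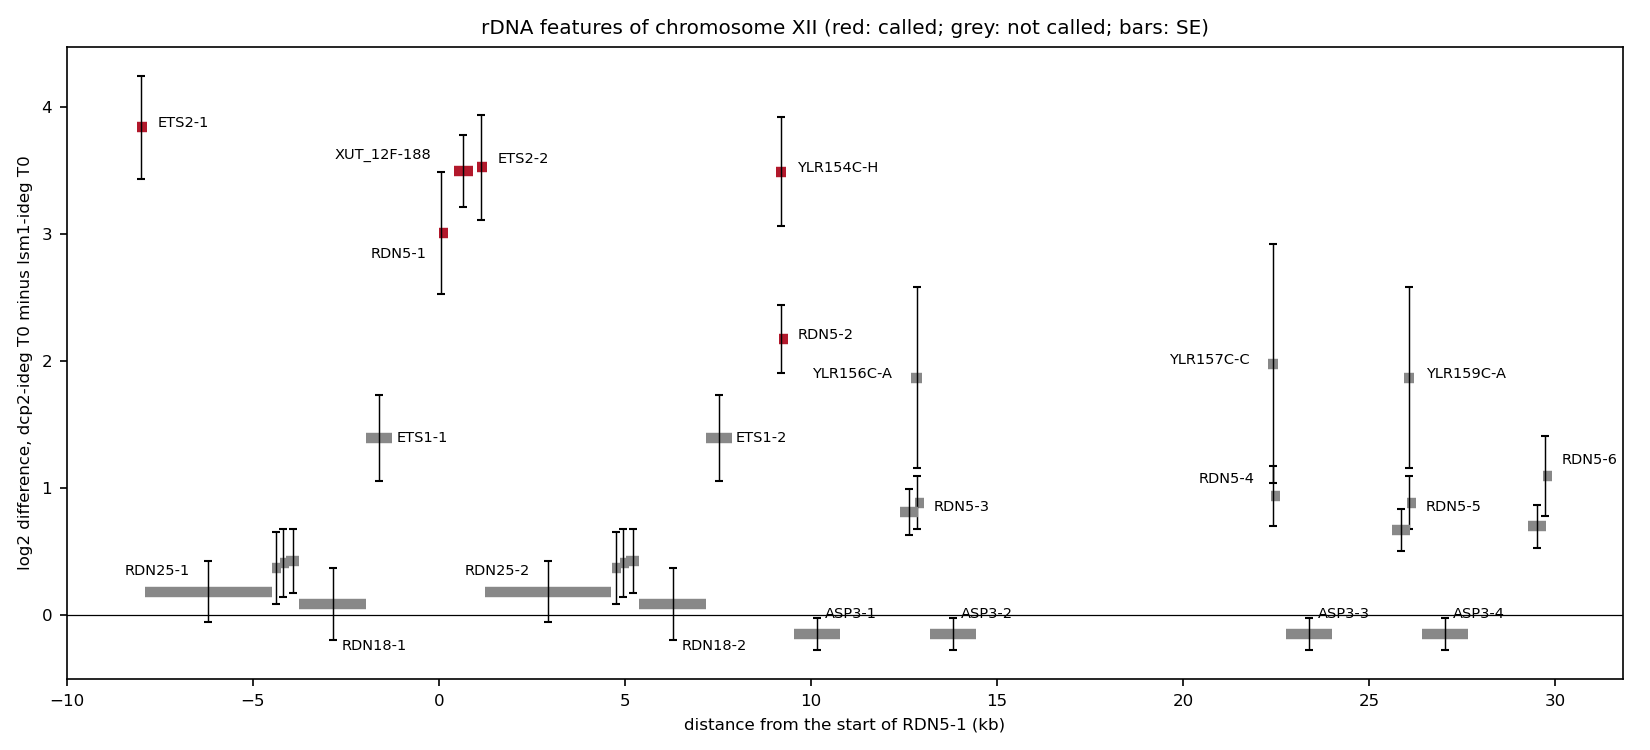
Log2 difference of dcp2-ideg T0 minus lsm1-ideg T0 (y axis, bars SE) of rDNA features along chromosome XII, by distance from the start of RDN5-1 in kb (x axis), with called features in red. The called features lie around RDN5-1 and RDN5-2 and at the 3′ external spacers, and the 25S and 18S genes lie near 0.

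Near chromosome ends the called features were all lower in dcp2-ideg. Of 233 tested features within 10 kb of an end, 6 were called lower (2.58%) and 0 higher by edgeR, against 0.0679% lower over all features. Of the 233, 33 had an unadjusted p under 0.05 by edgeR, against 6.43% of all features, and 4 of the 33 had higher values in dcp2-ideg, while neither DESeq2 nor limma voom called any higher. The 10 kb limit was chosen after the values were seen. The median log2 difference was -0.25 in the outermost 5 kb (97 features, 5 called), -0.11 from 5 to 10 kb (136 features, 1 called), -0.05 from 10 to 20 kb (287 features, 0 called) and 0.02 beyond 40 kb. In the outermost 5 kb it was -0.14 without dcp2-ideg replicate 4. Against wt T0, the medians in the outermost 5 kb were -0.20 in dcp2-ideg and 0.03 in lsm1-ideg. From 5 to 10 kb they were 0.04 and 0.14, and from 10 to 20 kb 0.14 and 0.15. Beyond 5 kb the dcp2-ideg medians were thus not below wt. Many features near chromosome ends belong to families of near-identical copies and share reads, so they are not separate measurements.

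**Figure D4:**
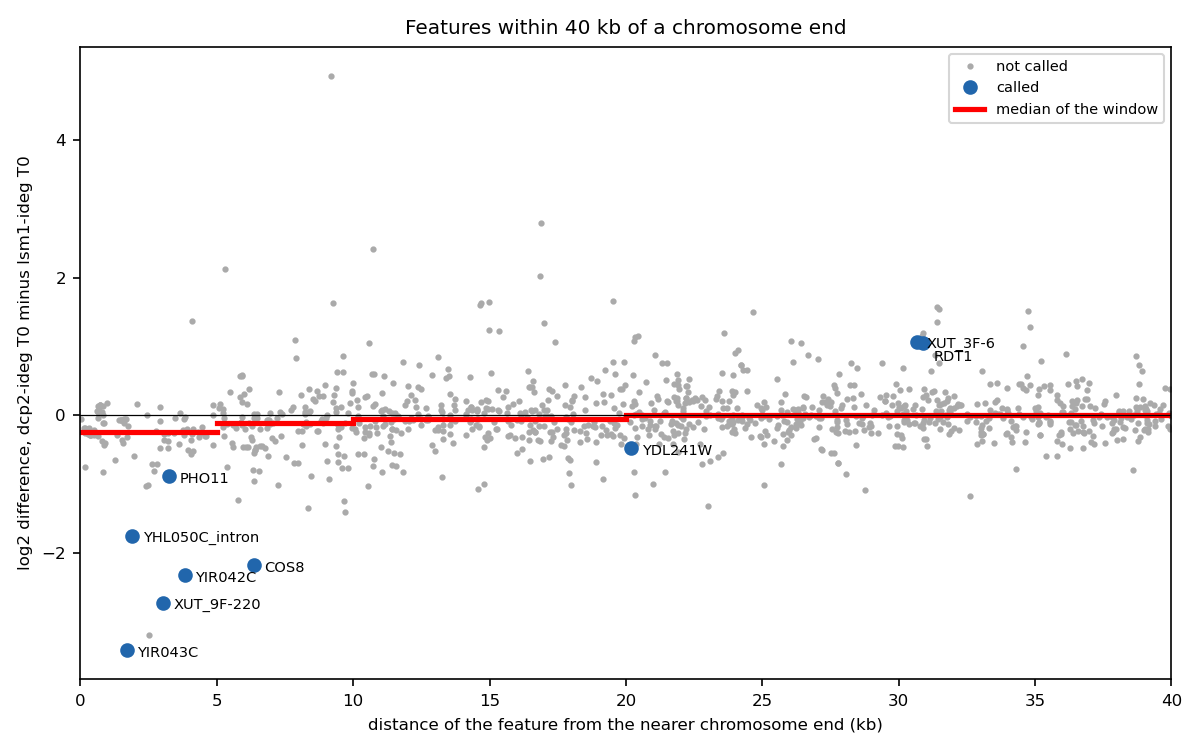
Log2 difference of dcp2-ideg T0 minus lsm1-ideg T0 (y axis) for each feature within 40 kb of a chromosome end, by distance from that end in kb (x axis), with called features as blue points and window medians as red lines. The 6 called features within 10 kb lie between -3.41 and -0.89, and the window medians lie at -0.25 nearest the end.

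COS8, a member of the subtelomeric COS family of membrane proteins that help sort cargo for the vacuole (chromosome VIII, 6351 to 7646, plus strand), had the smallest adjusted p among the genes that were lower. It had 4.23, 3.12, 4.19 and 6.46 CPM in dcp2-ideg T0, against 24.3, 20.7, 17.95 and 18.4 CPM in lsm1-ideg T0 and 26.8 to 37.1 CPM in wt T0. All dcp2-ideg libraries lay far below the other groups, and the difference was 4.52-fold, or -2.18 ± 0.18 on the log2 scale (adjusted p = 5.6e-08, edgeR). The other 11 COS genes measured lay between -0.36 (COS10) and 0.26 (COS111) and none was called. ARN2, the next gene inward, for a siderophore transporter, had a log2 difference of 0.05 (adjusted p = 0.91, edgeR). Outward on the same arm, the intron of the Y′ element gene YHL050C (chromosome VIII, 1898 to 2670, minus strand) had 2.24, 2.07, 2.11 and 0.63 CPM in dcp2-ideg T0, 6.47, 4.58, 3.84 and 8.95 CPM in lsm1-ideg T0 and 8.50 to 15.6 CPM in wt T0. That is a log2 difference of -1.75 ± 0.35 (adjusted p = 0.019, edgeR), and the call was lost without dcp2-ideg replicate 2 or without lsm1-ideg replicate 1 or 4 (adjusted p = 0.056 to 0.14). Near-identical copies of this intron lie at many other chromosome ends, so its source is uncertain.

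At the right end of chromosome IX the 3 outermost tested features were all lower in dcp2-ideg. YIR042C, an uncharacterised gene (434721 to 436064, minus strand), had 1.03, 2.25, 0.42 and 1.09 CPM in dcp2-ideg T0, against 6.72, 7.38, 4.78 and 5.10 CPM in lsm1-ideg T0 and 5.06 to 7.00 CPM in wt T0. The log2 difference was -2.32 ± 0.36 (adjusted p = 0.0011, edgeR). YIR043C, a blocked reading frame (437043 to 438179, minus strand), averaged 0.17 ± 0.15 CPM in dcp2-ideg T0 and 1.83 ± 0.85 CPM in lsm1-ideg T0 (SD, n = 4 each), a difference of -3.41 ± 0.61 (adjusted p = 0.0072, edgeR). Limma voom did not call YIR043C (adjusted p = 0.053), nor did the 8 libraries alone (0.24). XUT_9F-220, between them on the other strand (436159 to 436856), averaged 0.12 ± 0.12 CPM in dcp2-ideg T0 and 0.82 ± 0.40 CPM in lsm1-ideg T0, a difference of -2.72 ± 0.57 (adjusted p = 0.034, edgeR). The call on XUT_9F-220 was lost without any of 6 single libraries (adjusted p = 0.064 to 0.17), namely dcp2-ideg replicate 1, 3 or 4 and lsm1-ideg replicate 2, 3 or 4. The next genes inward, PAU15 and YPS6, had log2 differences of 0.34 and -0.61 and were not called (adjusted p = 0.91 and 0.57, edgeR).

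PHO11, for a secreted acid phosphatase (chromosome I, 225410 to 226963, plus strand), lies 3.26 kb from its chromosome end. It had 309, 287, 329.7 and 250.5 CPM in dcp2-ideg T0, against 528, 419, 707 and 520.4 CPM in lsm1-ideg T0 and 253 to 342 CPM in wt T0. Here dcp2-ideg and wt overlapped and lsm1-ideg lay above both. The difference between dcp2-ideg and lsm1-ideg was -0.89 ± 0.17 on the log2 scale (adjusted p = 0.014, edgeR), that between dcp2-ideg and wt -0.07 (adjusted p = 0.87, edgeR) and that between lsm1-ideg and wt 0.82 (adjusted p = 0.025, edgeR). The call was lost without dcp2-ideg replicate 2 or 4 (adjusted p = 0.063 and 0.055) or lsm1-ideg replicate 3 (0.10). PHO12, its 98.4% identical copy on chromosome VIII, had a log2 difference of -0.66 ± 0.18 and was not called (adjusted p = 0.22, edgeR), and reads of both genes may be mixed. Of 25 phosphate starvation genes PHO11 was the 1 called. PHO5, the main secreted acid phosphatase, had a log2 difference of -0.35 (adjusted p = 0.78, edgeR) and PHO84, the high-affinity phosphate transporter, one of -0.09 (adjusted p = 0.87, edgeR). The median of the list was -0.16.

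Away from these loci, 3 genes of the general stress response were higher in dcp2-ideg. HSP12, for a small membrane-associated heat shock protein (chromosome VI, 107215 to 107751, plus strand), had 49.5, 33.4, 47.0 and 72.7 CPM in dcp2-ideg T0, against 17.1, 18.3, 16.2 and 11.7 CPM in lsm1-ideg T0 and 7.51 to 17.8 CPM in wt T0. It was 3.20-fold higher, a log2 difference of 1.68 ± 0.32 (adjusted p = 0.011, edgeR), and the call was lost without lsm1-ideg replicate 4 (adjusted p = 0.083). YRO2, a relative of the plasma membrane protein Mrh1 (chromosome II, 342578 to 344586, plus strand), had 36.0, 24.5, 33.3 and 65.5 CPM in dcp2-ideg T0, 21.8, 13.2, 9.82 and 12.8 CPM in lsm1-ideg T0 and 34.2 to 45.5 CPM in wt T0. Its difference was 1.47 ± 0.28 (adjusted p = 0.014, edgeR), and the call was lost without dcp2-ideg replicate 4 or lsm1-ideg replicate 2, 3 or 4 (adjusted p = 0.063 to 0.083). Values of YRO2 may include reads of CUT017, which overlaps it on the same strand, as does CUT122 with HSP12.

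YGP1, for a secreted glycoprotein induced when nutrients run out (chromosome XIV, 336497 to 337785, plus strand), had 88.2, 70.7, 91.6 and 71.8 CPM in dcp2-ideg T0, against 41.9, 40.5, 48.3 and 39.8 CPM in lsm1-ideg T0 and 87.2 to 154 CPM in wt T0. The difference was 0.92 ± 0.15 (log2, SE, adjusted p = 0.0013, edgeR), and it kept its call whichever of the 8 libraries was left out. SUT328 overlaps YGP1 on the same strand. Against the same wt libraries, which both comparisons share, HSP12 differed from wt in dcp2-ideg (log2 2.12, adjusted p = 0.00038, edgeR) and was not called in lsm1-ideg (0.44, adjusted p = 0.89, edgeR). YRO2 and YGP1 differed from wt in lsm1-ideg (log2 -1.47, adjusted p = 0.0093, and -1.41, adjusted p = 3.3e-06, edgeR) and were not called in dcp2-ideg (-0.001, adjusted p = 1.0, and -0.49, adjusted p = 0.15).

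The 3 were the calls among 54 general stress response genes (5.56%), against 0.161% of all features and 0.122% of coding genes called higher, and the median log2 difference of the list was 0.10. Other members of that list were not called: HSP26, for a small heat shock chaperone, had 0.42 ± 0.30, CTT1, for cytosolic catalase, -0.05 ± 0.15, and DDR2 0.89 ± 0.28 (adjusted p = 0.41, edgeR). None of 28 heat shock factor targets was called by edgeR, DESeq2 or limma voom, and 1 had an unadjusted p under 0.05 by edgeR. The stretch of 209 bases before the HSP12 transcript is shown because stress genes are known for the element AGGGG, which Msn2 and Msn4 bind; capitals mark its 2 matches, both on the other strand (R64, chrVI:107006-107214, plus strand).
HSP12: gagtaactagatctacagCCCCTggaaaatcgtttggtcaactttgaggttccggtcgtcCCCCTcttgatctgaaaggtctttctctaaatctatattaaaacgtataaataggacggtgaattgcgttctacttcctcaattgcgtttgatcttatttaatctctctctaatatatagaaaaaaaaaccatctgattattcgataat

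In windows from 250 bases before to 50 after the annotated start of each R64 gene, AGGGG on either strand was found for 3 of the 7 protein-coding genes that were higher (LSM1, HSP12 and YLR154C-H) and for 1 of the 5 that were lower (COS8), against 21.6% of 6001 windows. It was not among the letters of the YRO2 and YGP1 windows.

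MET2, for homoserine O-acetyltransferase of methionine synthesis (chromosome XIV, 117251 to 118891, plus strand), had 25.9, 25.9, 30.3 and 29.7 CPM in dcp2-ideg T0, against 14.5, 13.4, 17.4 and 16.1 CPM in lsm1-ideg T0 and 6.88 to 12.8 CPM in wt T0. The 3 strains did not overlap, with wt lowest. Against wt T0 the log2 difference was 1.45 in dcp2-ideg (adjusted p = 1.5e-05, edgeR). In lsm1-ideg it was 0.59 and was not called (adjusted p = 0.21, edgeR). The difference between dcp2-ideg and lsm1-ideg, 0.86 ± 0.17 (log2, SE), was called (adjusted p = 0.014, edgeR). That call was lost when dcp2-ideg replicate 3 or lsm1-ideg replicate 1, 2 or 4 was left out (adjusted p = 0.058 to 0.096). MET2 was the 1 call among 36 sulfate assimilation and methionine genes, whose median was 0.09. MET14, for adenylylsulfate kinase, had 0.52 (adjusted p = 0.54, edgeR) and MET6, for methionine synthase, 0.01 (adjusted p = 0.99, edgeR).

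A pair of overlapping features on chromosome III, XUT_3F-6 (30658 to 31231, plus strand) and within it RDT1 (30910 to 30996), a small gene at a replication origin, was higher in dcp2-ideg. XUT_3F-6 had 44.0, 38.0, 43.7 and 79.5 CPM in dcp2-ideg T0, against 28.7, 23.4, 24.8 and 20.9 CPM in lsm1-ideg T0 and 16.1 to 30.5 CPM in wt T0. The difference was 1.07 ± 0.19 (log2, SE, adjusted p = 0.0075, edgeR), and that of RDT1 1.06 ± 0.20 (adjusted p = 0.0096, edgeR). Both calls were lost without lsm1-ideg replicate 4 (adjusted p = 0.058 and 0.065).

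The other 3 called genes differed little or were rare. ATG39, a receptor for autophagy of the nuclear envelope, averaged 2.57 ± 0.557 CPM in dcp2-ideg T0 and 1.05 ± 0.330 CPM in lsm1-ideg T0 (SD, n = 4 each), a log2 difference of 1.29 ± 0.26 (adjusted p = 0.027, edgeR). ATF1, for the alcohol acetyltransferase that makes fruity esters, averaged 55.3 ± 6.21 CPM in dcp2-ideg T0 and 77.8 ± 4.94 CPM in lsm1-ideg T0, a difference of -0.49 ± 0.10 (adjusted p = 0.034, edgeR). YDL241W, an uncharacterised gene overlapped on its strand by XUT_4F-14, averaged 19.96 ± 1.19 CPM in dcp2-ideg T0 and 27.8 ± 2.38 CPM in lsm1-ideg T0, a difference of -0.48 ± 0.10 (adjusted p = 0.035, edgeR). All 3 calls depended on single libraries: ATG39 was lost without any of 6 single libraries (all but dcp2-ideg replicate 3 and lsm1-ideg replicate 1), ATF1 without any of 7 (all but dcp2-ideg replicate 1) and YDL241W without any of 6 (all but dcp2-ideg replicate 1 and lsm1-ideg replicate 2). The highest adjusted p values on those omissions were 0.15, 0.20 and 0.20 (edgeR).

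Across 43 gene lists, 36 had 0 members called by edgeR, and the medians of 40 lay within 0.2 of 0. The 7 lists with a call held LSM1, YGP1, HSP12, YRO2, MET2 or PHO11. The 42 genes of the respiratory chain and ATP synthase, which make ATP in mitochondria, had the highest median of the 43 lists, 0.37, with 40 of the 42 above 0 in log2 difference. None of the 42 was called by edgeR or DESeq2, 2 were called by limma voom with sample quality weights, and 23 had an unadjusted p under 0.05 by edgeR (54.8%), all with higher values in dcp2-ideg, against 6.43% of all features. Without dcp2-ideg replicate 4 this was 7 of 42 (16.7%), against 4.16% of all features. COX4, a subunit of cytochrome c oxidase, had a difference of 0.67 ± 0.21 (adjusted p = 0.43, edgeR) and ATP19, a subunit of the ATP synthase, one of 0.70 ± 0.24 (adjusted p = 0.54, edgeR). The median of the list was 0.18 without dcp2-ideg replicate 4, the library with the high share of ribosomal protein counts, and the part of that library in the list's values was not tested further. The 138 genes named RPS, RPL or RPP, which are ribosomal protein genes apart from the RNase P subunit gene RPP1, had 0 calls by edgeR, with 2 at an unadjusted p under 0.05, 0 by DESeq2 and 1 by limma voom. Their median was 0.12, and -0.06 without that library. The 19 tested seripauperin genes, most of them subtelomeric, had a median of -0.22 and 0 calls by all 3 tools, with 3 at an unadjusted p under 0.05.

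The T60 libraries gave the same strains again after 60 min of IAA and beta-oestradiol. The labels do not say whether same-numbered T0 and T60 libraries came from the same culture, and the fit did not pair them. The ribosomal protein share of dcp2-ideg replicate 4 was the highest of its group at T0 (24.7%) and at T60 (14.6%). Agreement between both times is therefore not known to be independent. Of the 27 features, 25 had the same direction between dcp2-ideg T60 and lsm1-ideg T60, and 23 were called in that direction by edgeR. The background there was large, with 45.9% of all features called (25.1% higher and 20.8% lower) and 45.9% with groups that did not overlap. For 12 of the 27 the difference at T0 and that at T60 differed by the interaction test. Over distinct stretches with both ETS2 copies counted once, that was 7 of 22 (31.8%), against 28.5% of all features. XUT_12F-188 averaged 96.3 ± 33.3 CPM in dcp2-ideg T60 and 7.83 ± 1.72 CPM in lsm1-ideg T60 (SD, n = 4 each), a log2 difference of 3.62 ± 0.28, close to its T0 value of 3.50. COS8 averaged 4.78 ± 0.280 CPM in dcp2-ideg T60 and 20.6 ± 3.99 CPM in lsm1-ideg T60, a difference of -2.11 ± 0.18, against -2.18 at T0. LSM1, RDN5-1, RDN5-2 and CUT207 likewise had T60 differences of 0.57, 2.99, 2.18 and 1.49. RDN5-3 to RDN5-6, not called at T0, had T60 differences of 2.10 to 2.23, all called by edgeR and close to that of RDN5-2.

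For other features the difference was not the same at both times. HSP12 averaged 239.5 ± 64.1 CPM in dcp2-ideg T60 and 16.5 ± 7.58 CPM in lsm1-ideg T60, a log2 difference of 3.86 ± 0.34 that exceeded the one at T0 (interaction adjusted p = 0.00057, edgeR). ETS2-1 gave 1.14 ± 0.37 at T60, less than 3.84 at T0 (interaction adjusted p = 0.00044, edgeR). MET2 turned round, with 6.61 ± 1.04 CPM in dcp2-ideg T60 and 13.3 ± 1.44 CPM in lsm1-ideg T60, a difference of -1.01 ± 0.17 (adjusted p = 2.9e-05, edgeR), and the interaction was called (adjusted p = 3.0e-06). ATF1 had 0.15 ± 0.10 at T60 (adjusted p = 0.25, edgeR), the other sign than at T0 (interaction adjusted p = 0.0018).

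**Figure D5:**
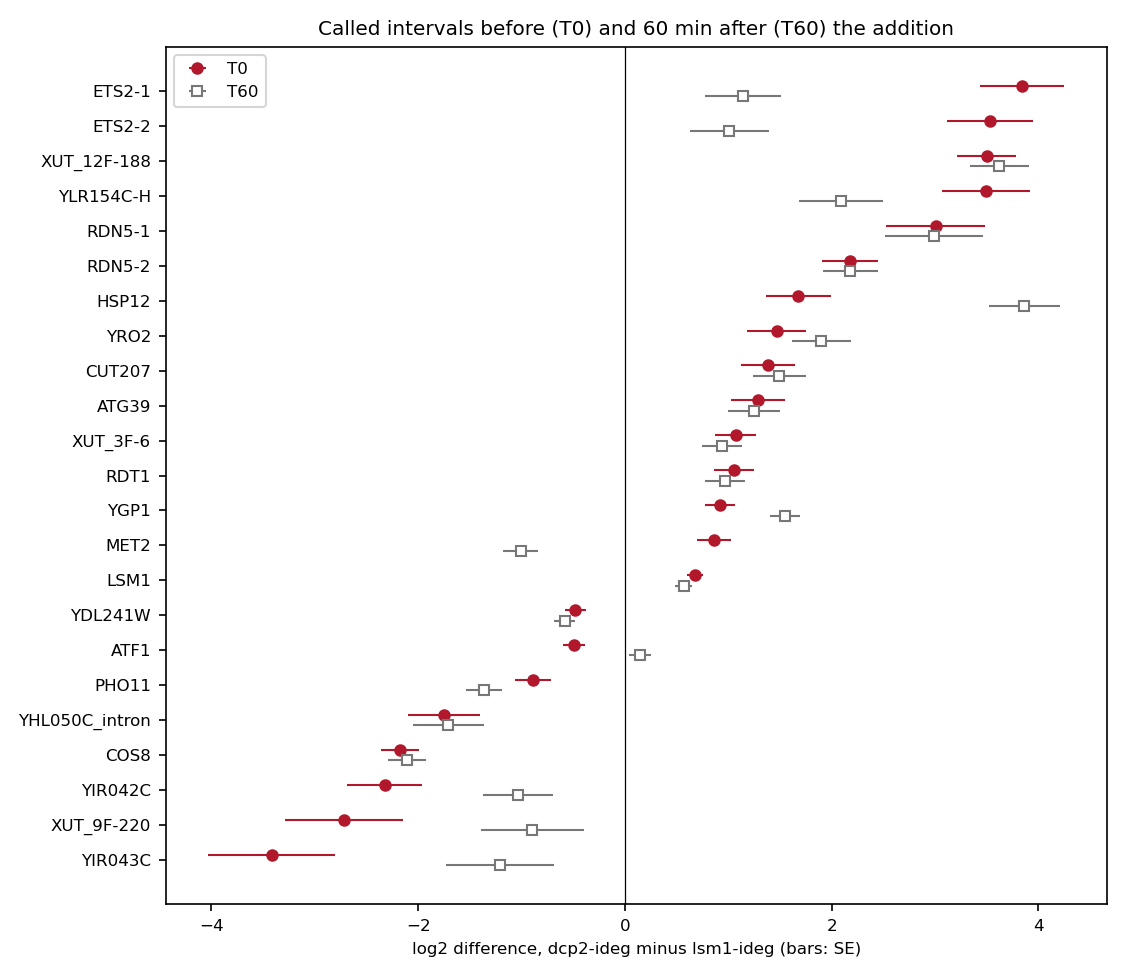
Log2 difference of dcp2-ideg minus lsm1-ideg (x axis, bars SE) for the 23 called stretches (y axis) at T0 (red points) and at T60 (grey squares). Points and squares lie close together for XUT_12F-188, RDN5-1, RDN5-2, COS8 and LSM1, apart for HSP12 and ETS2, and on either side of 0 for MET2 and ATF1.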

How the data were processed

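RNA was poly(A)-selected and made into strand-specific libraries with dUTP, per the labels' protocols. The authors deposited raw counts per feature; STAR, featureCounts and the sacCer3 build are named per the submitters' processing notes, and their versions, strand setting and handling of multi-mapping reads are not given in the sources used here. Coordinates are those of the deposited table, and sequences were read from RefSeq's R64 genome, where 5385 of 5796 coding features (92.9%) enclosed the reference gene.

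The counts of all 24 libraries (6 groups of 4) were fitted together with edgeR 4.0.16 in R 4.3.3 (quasi-likelihood F-test, TMM scaling, edgeR's expression filter), and p-values were adjusted by Benjamini-Hochberg over 11776 features. A log2 difference is dcp2-ideg minus lsm1-ideg (or minus wt, where named), and CPM are counts per 1000000 of TMM-scaled library size. There was no spike-in, so differences are relative to the whole library. No per-sample column was left unmapped, and the script was tested on simulated data. There it recovered 22 of 100 changes of 1.5-fold and 50 of 100 changes of 2-fold, with 3 false calls. A feature that was not called may therefore still differ. Promoter motifs were searched on both strands, and near-identical copies (95% identity over 50% of a feature) with blastn 2.17.0.

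Named were the tagged genes and their loci, the 12 coding genes and 5 other features per direction with the largest called differences at a mean of 5 CPM or more, up to 4 called members per list, and the tagged-gene, strain-marker, Lsm and decapping lists. The other called features and the neighbours, copies, list members, rDNA features and chromosome-end windows outside that rule were chosen after their values were seen. The comparison and lists were chosen with earlier results of these data known. Alternatives were other scalings and filters, DESeq2 1.42.0, limma 3.58.1 with voom sample weights, the 8 libraries alone, coding genes alone, a replicate block and each library left out.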

Additional observations from a re-analysis of the deposited data

Results flagged for a closer look

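Among 180 sets of 4 libraries examined (each named feature or share in each untreated group), 23 held 1 library far from its 3 mates. The gap used flags about 5% of single sets by chance. These sets read the same libraries repeatedly, so 5% is not an expected rate for the 23. Of the 23, 14 were dcp2-ideg T0 replicate 4. In that library LSM2, LSM5, LSM6 and LSM7 had 120.3, 170.3, 152 and 85.0 CPM, against 67.1, 67.9, 65.6 and 56.5 CPM for the means of the other 3. PAT1, DHH1, SBP1, RAT1 and NGR1 had 101, 66.6, 267, 101 and 32.9 CPM there, against 219, 123, 461, 171 and 94.97 CPM. TRP1 and XUT_3F-6 had 121 and 79.5 CPM, against 60.4 and 41.9 CPM, and URA3 and the YHL050C intron had 12.4 and 0.63 CPM, against 30.2 and 2.14 CPM. Ribosomal proteins took 24.7% of its counts, against 15.5%.

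In lsm1-ideg T0, URA3 had 42.8 CPM in replicate 3 (34.1 CPM in the others), SCD6 had 116 CPM in replicate 1 (104 CPM), ATG39 had 1.54 CPM in replicate 1 (0.89 CPM), and ribosomal proteins took 16.03% of counts in replicate 4 (16.2%). In wt T0 replicate 4, MTC1 had 195.6 CPM (152 CPM in the others), HO 101 CPM (112 CPM), EDC3 122 CPM (102 CPM), DHH1 131 CPM (113 CPM) and RAT1 208 CPM (161 CPM).

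The difference between both degron strains was itself not the same before and after treatment, by edgeR's interaction test, for ETS2-1 (2.70 on the log2 scale, T0 minus T60), ETS2-2 (2.52) and MET2 (1.87), and for HSP12 (-2.18), YIR043C (-2.20), YIR042C (-1.29), ATF1 (-0.64) and YGP1 (-0.63).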

How the results depend on the processing

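The 27 calls, 19 higher, 8 lower and 12 coding, were 27 with RLE factors, 28 with total count scaling and 27 with no filter. They were 16, 12 higher and 4 lower, with a 10 CPM filter, which dropped 12 of the 27 before testing and left 13 called at T60. DESeq2 called 49, 35 higher, 14 lower and 23 coding, and limma voom with sample quality weights 54, 36 higher, 18 lower and 33 coding. The 8 libraries alone called 15, 1 lower and 6 coding, and the 8 libraries alone without dcp2-ideg T0 replicate 4, an alternative added after seeing the data, 42, 32 higher and 27 coding. The cause of these shifts was not tested. A replicate block called 47, 32 higher, 15 lower and 23 coding. Same-numbered libraries of both strains at T0 had correlations of deviations of 0.081, 0.065, -0.0013 and -0.030, against -0.063 to 0.077 for unlike numbers. Whether the replicate number stands for a shared batch or culture was not tested. Coding genes alone gave 16 coding calls. Leaving out single libraries gave 17 to 29 calls, 13 to 24 higher, 4 to 7 lower and 7 to 11 coding, the fewest without lsm1-ideg replicate 4, with 23 to 24 called at T60 and 2936 to 3911 interactions. No result that was called turned direction under these alternatives, and DESeq2, RLE factors, total counts, no filter and the block kept all 27 calls, while limma voom kept 24 and lost YIR043C, ATG39 and XUT_9F-220.

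The median standard error of a log2 difference was 0.212, and features under 1 CPM rest on few reads. Multi-copy rDNA and subtelomeric features (7 of the 23 stretches have a near-identical copy) are uncertain as to source.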
